A study of Mus musculus with 2 samples.

Results

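The spots described here are the 50 with the most Pmch RNA in section 1 of a spatial transcriptomic study of wildtype C57BL/6 mouse brain. Pmch encodes the precursor of melanin-concentrating hormone (MCH). Spatial RNA was read with Visium, in which each barcoded spot on a slide captures RNA from the tissue above it, and each unique molecular identifier (UMI) stands for 1 captured RNA molecule. The study holds 2 fresh frozen sections, 10 µm thick, both wildtype and both collected at zeitgeber time ZT12, labelled replicates 1 and 2, with no treatment. The comparison here was within section 1 (replicate 1), and section 2 (replicate 2) was set beside it. Among section 1 spots with at least 500 UMIs, Pmch UMIs were divided by the spot's total, and the 50 spots with the highest value were taken. These are 50 of 3030 kept spots in section 1 and of 5561 in both sections. The spots were thus chosen by their measured Pmch values, so Pmch levels among them are given as a description only. A spot is a small region that can hold several cells of different types or parts of cells, so every share below is a share of spots.

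The 50 spots held 620407 UMIs, with a median of 12232 per spot and a range of 1340 to 28405. The other 2980 spots held 58022822 UMIs, with a median of 18216 and a range of 510 to 62157. The Pmch-rich spots were therefore the shallower set. Mitochondrially encoded genes took 15.6% of UMIs in the Pmch-rich spots and 14.9% in the other spots. Since 1 section holds all 50 spots and spots are not replicates, no test was possible. Sums of UMIs carry exact Poisson intervals, shares exact binomial (Clopper-Pearson) intervals and ratios exact conditional binomial intervals, all at 95% and all covering counting error only. Levels are given as CPM, the UMIs of a gene per 1e+06 UMIs summed over a set of spots. In a spot, fewer cells of a type and less RNA per cell cannot be told apart.

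MCH neurons lie in the lateral hypothalamus and zona incerta, intermingled with the neurons that make orexin (hypocretin, from Hcrt), and both populations project widely through the brain. MCH acts through the receptor Mchr1 in rodents and is known for its roles in feeding, energy balance and sleep. Most MCH neurons make GABA-synthesising enzyme as well as the vesicular glutamate transporter Slc17a6, and many of them also make the peptide CART, encoded by Cartpt. The Pmch gene lies on chromosome 10, from 88091072 to 88092374 in the RefSeq annotation of GRCm38.p6. Its span overlaps that of Parpbp, from 88091398 to 88146969.

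Pmch RNA was concentrated in very few spots. Section 1 held 1415 Pmch UMIs, of which the 50 spots held 834 (58.9%) and the other spots 581. This was 1344 CPM (1255 to 1439) in the Pmch-rich spots and 10.0 CPM (9.22 to 10.9) in the other spots. A single spot held 546 Pmch UMIs of its 18582 UMIs, or 294 per 10000, which was 38.6% of all Pmch UMIs in the section. The spot ranked next held 69 Pmch UMIs, and the spots ranked 3 and 4 held 29 each. The 4 top-ranked spots together held 673 Pmch UMIs, 80.7% of the UMIs of the 50 spots, and the remaining 46 spots shared 161. The median spot of the 50 had 2.46 Pmch UMIs per 10000, or 2.5 UMIs. Without the top spot, the Pmch level of the Pmch-rich spots was 478.5 CPM.

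**Figure D1:**
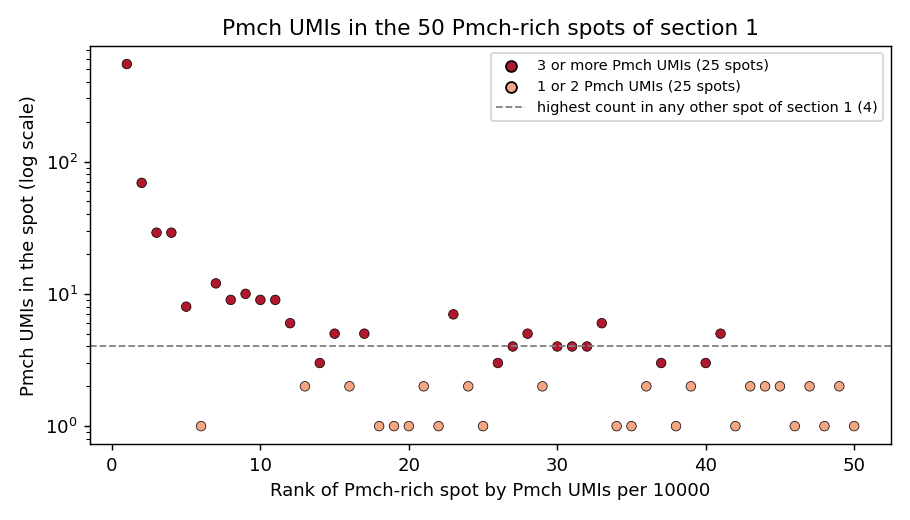
Pmch UMIs (log axis) in each of the 50 Pmch-rich spots of section 1, in order of rank by Pmch UMIs per 10000, with spots of at least 3 Pmch UMIs in dark red and those of 1 or 2 in light orange. The top spot holds 546 UMIs and the next 69, and 25 spots hold 1 or 2, below the dashed line at 4 UMIs that marks the highest count in any other spot.

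The limit at 50 spots fell within a continuous run of low values. The last spot inside held 1 Pmch UMI of 6342 UMIs (1.58 per 10000), and the first spot outside held 2 Pmch UMIs of 13078 (1.53 per 10000). Among the 50 spots, 25 had at least 3 Pmch UMIs, 12 had 2 and 13 had 1. The 13 spots with 1 Pmch UMI had totals of 1340 to 6342 UMIs, so at their depth 1 UMI was enough for a place among the 50. Outside the 50, 421 spots had 1 Pmch UMI, 61 had 2, 6 had 3 and 5 had 4, which was the highest count there. Spots of equal Pmch count therefore lie on both sides of the limit, with the deeper ones outside.

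The spots were compared on 12 genes of peptidergic and hypothalamic neurons, among them Hap1, Baiap3, Ecel1, Gabrq, Gpr101 and Irs4. The 12 include no peptide gene. All 3030 kept spots were ranked by these genes. Of the 50 Pmch-rich spots, 10 lay among the first 100 spots and 22 among the first 303. A further 12 lay between rank 303 and rank 1515, while 16 lay in the lower-ranked 1515 spots and 7 among the last 303. Of the 25 spots with at least 3 Pmch UMIs, 19 lay in the first 303, against 3 of the 25 spots with fewer. Their median rank was 145 for the spots with at least 3 Pmch UMIs and 1903 for those with fewer, and their median depth was 17140 and 6342 UMIs. This split was made after the values were seen, and Pmch count and depth cannot be told apart in it. The 7 spots among the last 303 had no more than 2 Pmch UMIs each. Many spots with at least 3 Pmch UMIs thus ranked high on the 12 genes, and few of those with 1 or 2 did. A high rank alone does not place a spot in the hypothalamus. The 50 other spots ranked highest held 132 UMIs of Nps and 152 of Calca, peptide genes known from the brainstem. A UMI of Otp, Nkx2-1, Nkx2-4 or Six6, picked from a longer list of factors, was found in 2 of those spots. Over all 2980 other spots it was found in 81, or 2.72% (2.16 to 3.37). It was found in 10 Pmch-rich spots, or 20% (10.0 to 33.7), all with at least 3 Pmch UMIs. Sim1, from the same list, had no UMI in the Pmch-rich spots, and the values of the whole list are given below. Because rank alone does not place a spot, the 50 spots described are called Pmch-rich spots here.

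**Figure D2:**
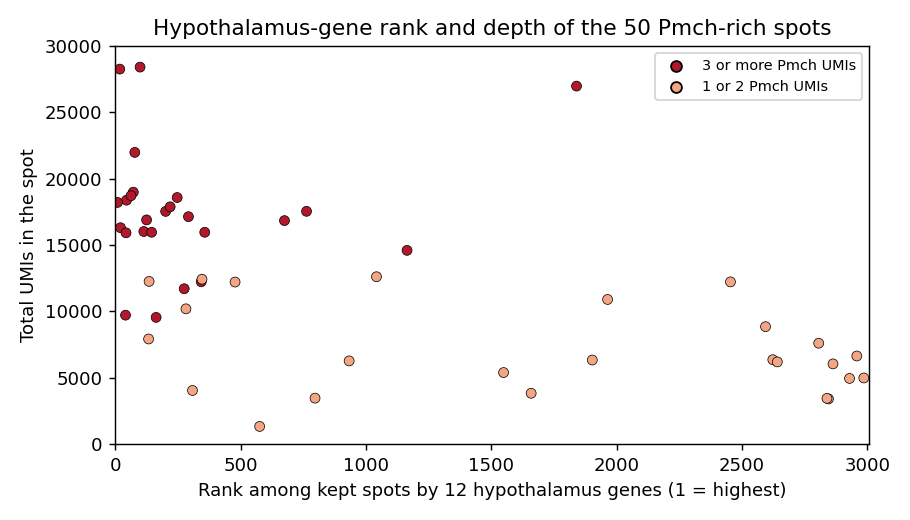
Total UMIs (vertical axis) against rank by the 12 hypothalamus genes (horizontal axis, 1 is highest of 3030) for each of the 50 Pmch-rich spots, divided into spots with at least 3 Pmch UMIs and spots with 1 or 2. The spots with at least 3 sit at a median rank of 145 and a median of 17140 UMIs, and those with fewer at a median rank of 1903 and a median of 6342 UMIs.

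Of the 12 genes, 10 had at least 100 UMIs over section 1, the minimum used for counts of genes, and all 10 stood higher in the Pmch-rich spots than in the other spots. The median ratio was 2.13, and 5 of the 10 stood at least 2-fold higher, against 3.04% of all 13319 measured genes. Ecel1, an endothelin-converting-enzyme-like peptidase of neurons, stood 4.17-fold higher, and all 21 of its UMIs were in spots with at least 3 Pmch UMIs. Gpr101, an orphan receptor, stood 4.56-fold higher (2.16 to 8.56), Gabrq, the theta subunit of the GABA-A receptor, 3.26-fold, and Hap1, the huntingtin-associated protein of the stigmoid body, 2.28-fold. For Hap1 the ratio to the other spots was 2.78 in the spots with at least 3 Pmch UMIs and 1.06 in those with fewer. Irs4, an insulin receptor substrate of the hypothalamus, had 6 UMIs in the 50 spots and a ratio of 7.38.

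Transcription factors that specify the hypothalamus were sparse. Of 60 listed transcription factors, 42 were measured, with a median ratio of 0.810. Of these, 5 stood at least 2-fold higher and 11 at least 2-fold lower, against 3.04% and 7.54% of all measured genes. Over all measured genes the median was 0.968. Otp, required for neurosecretory neurons of the hypothalamus, had 8 UMIs in 6 of the Pmch-rich spots, or 12.9 CPM (5.57 to 25.4), against 1.02 CPM (0.774 to 1.31) in the other spots, a ratio of 12.7 (5.23 to 26.7). Nkx2-1, which patterns the ventral hypothalamus, had 2 UMIs in the Pmch-rich spots and 28 in the other spots. Nkx2-4 had 2 UMIs in the Pmch-rich spots and 4 in the other spots, a ratio of 46.8 (4.23 to 326), and the section's only UMI of Six6 lay in a Pmch-rich spot. Sim1, a factor of the paraventricular nucleus, was at 0 of 11 UMIs in the Pmch-rich spots. Otp, Nkx2-1, Nkx2-4, Six6 and Sim1 each had under 100 UMIs in the section, so they are not among the 42 measured. Dlx2, Dlx5, Dlx6 and Sp9 were among the higher ones.

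Hcrt was nearly absent from the Pmch-rich spots, as from the section. Section 1 held 39 Hcrt UMIs in 39 spots, and no spot had more than 1. Of these UMIs 1 lay in a Pmch-rich spot, at Pmch rank 37. The level was 1.61 CPM in the Pmch-rich spots and 0.655 CPM in the other spots, a ratio of 2.46 with an interval of 0.0607 to 14.6. A Hcrt UMI was found in 2% of Pmch-rich spots (0.0506 to 10.6) at a median depth of 12232 UMIs, against 1.28% of the other spots (0.904 to 1.75) at 18216. Among the 200 spots richest in Slc17a7, the vesicular glutamate transporter of cortical and hippocampal neurons, which should lack Hcrt and Pmch, the share was 1.5% (0.310 to 4.32) at a median depth of 26539. The 3 intervals overlap, so the Hcrt share is not read as expression in the Pmch-rich spots. After each spot was thinned to 5000 UMIs, 0 of 42 Pmch-rich spots had a Hcrt UMI, which allows a share of up to 7.14% at 3 counts (exact binomial limit 8.41%), against 0.356% of the other spots. A difference in Hcrt was not detectable at this depth.

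The 6 measured genes on a list of orexin neuron genes had a median ratio of 0.585, with 0 at least 2-fold higher and 3 at least 2-fold lower, against 3.04% and 7.54% of all measured genes. Lhx9, a transcription factor of orexin neurons, stood at 0.451, and Pdyn, the dynorphin precursor that orexin neurons also make, at 0.383 (0.104 to 0.985). Lhx9 rested on 3 UMIs in the spots with at least 3 Pmch UMIs and 1 UMI in those with fewer. Of the 6 genes, 1 stood above 1. This was Rfx4, at 1.81 in the spots with at least 3 Pmch UMIs and 1.77 in those with fewer. Hcrtr1 and Hcrtr2, the orexin receptors, had 1 UMI each in the Pmch-rich spots.

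Cartpt followed Pmch in the top spot. It had 78 UMIs in 14 of the Pmch-rich spots, and 58 of them lay in the top Pmch spot, while the other 13 spots had 1 to 4 UMIs each. The level was 126 CPM (99.4 to 157) in the Pmch-rich spots and 7.31 CPM (6.63 to 8.04) in the other spots, a ratio of 17.2 (13.3 to 21.9), and without the top Pmch spot the ratio was 4.55. A Cartpt UMI was found in 28% of the Pmch-rich spots (16.2 to 42.5) and 11.9% of the other spots (10.8 to 13.1), against 15.5% of the deeper Slc17a7-rich spots. After thinning to 5000 UMIs these shares were 14.3%, 3.31% and 1.68%. The 50 other spots that ranked highest by the 12 hypothalamus genes had a larger share, 40% (26.4 to 54.9) at full depth and 18% after thinning. No spot outside the 50 had more than 7 Cartpt UMIs. The top spot therefore held both the section's highest Pmch and its highest Cartpt count.

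The other genes of MCH neurons were mostly near the level of the other spots. Of 12 measured genes on this list, 2 stood at least 2-fold higher, Cartpt and Tacr3, and 1 at least 2-fold lower. Over all measured genes these shares were 3.04% and 7.54%. The median ratio of the list was 0.971. Tacr3, the neurokinin B receptor found in a subset of MCH neurons, had 8 UMIs, 4 of them in the top spot, and a ratio of 3.02 (1.29 to 6.04), or 1.56 without that spot. The GABA-synthesising enzymes Gad1 and Gad2 stood at 1.19 (1.03 to 1.37) and 1.82 (1.55 to 2.12). The vesicular GABA transporter Slc32a1 stood at 1.52 (1.31 to 1.76). Slc17a6, the glutamate transporter of hypothalamic and thalamic neurons, stood at 0.815 (0.602 to 1.08), and Slc17a7 at 0.441. Nptx1, a neuronal pentraxin reported in MCH neurons, stood at 0.573. Parpbp, whose span overlaps that of Pmch, had 0 UMIs in the Pmch-rich spots and 11 in the section.

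In the top Pmch spot alone, the 12 largest ratios to the rest of the section, among genes with at least 8 UMIs there, ran from 3.03 to 412, by a rule added after the values were seen. Cartpt led them, with 3121 CPM (2370 to 4035) in that spot and 7.57 CPM in the rest, a ratio of 412 (308 to 543). Maged2 followed at 7.53. Erp29 and Emc7, which serve protein folding and membrane insertion in the endoplasmic reticulum, stood at 4.99 and 4.05. Ndn, the imprinted gene encoding necdin, had 17 UMIs and a ratio of 4.03 (2.35 to 6.45). Pcsk2, the convertase that cleaves prohormones including the MCH precursor, had 14 UMIs and a ratio of 3.29 (1.80 to 5.52), and Resp18, a neuroendocrine secretory protein, had 15 UMIs and a ratio of 3.09. The spot held no UMI of Avp, Oxt or Hcrt.

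**Figure D3:**
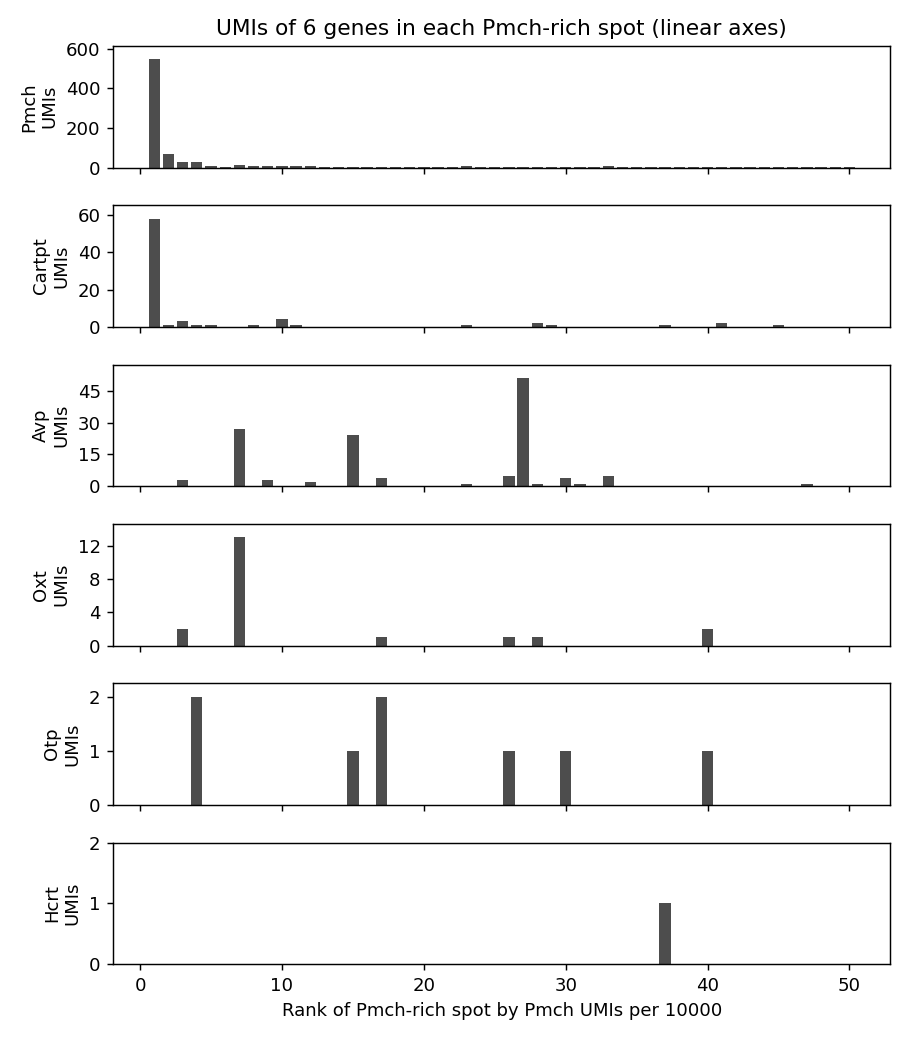
UMIs of Pmch, Cartpt, Avp, Oxt, Otp and Hcrt (1 panel each, linear axes) in each of the 50 Pmch-rich spots, in order of Pmch rank along the horizontal axis. Cartpt is high only in the top spot (58 UMIs), while the highest Avp counts (51, 27 and 24) lie at ranks 27, 7 and 15.

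Avp, the vasopressin precursor, and Oxt, the oxytocin precursor, also stood higher in the Pmch-rich spots, mostly in other spots than Cartpt. Avp had 132 UMIs in 14 spots, from 51 at rank 27, 27 at rank 7 and 24 at rank 15 down to 1 UMI. These 3 spots held 77.3% of the Avp UMIs of the 50, and the highest count outside the 50 was 16. The level was 213 CPM (178 to 252) in the Pmch-rich spots and 6.31 CPM (5.68 to 6.99) in the other spots, a ratio of 33.7 (27.4 to 41.3), or 21.3 without the spot at rank 27. An Avp UMI was found in 28% of the Pmch-rich spots and 8.86% of the other spots, against 12% of the Slc17a7-rich spots, and after thinning in 26.2%, 2.88% and 3.91%. Oxt, with 70 UMIs in the section and so below the minimum for counts of genes, had 20 UMIs in 6 spots, 13 of them at rank 7, with 32.2 CPM in the Pmch-rich spots and 0.862 CPM in the other spots. The ratio was 37.4 (21.1 to 64.0), or 13.5 without that spot. Both genes were found together in 5 of the 50 spots. Vasopressin and oxytocin are made by magnocellular and paraventricular neurons of the hypothalamus, and Avp also by other hypothalamic and amygdalar neurons. Like Pmch and Cartpt, both had their section maximum in a Pmch-rich spot.

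Of 45 listed peptide genes, 24 were measured, of which 4 stood at least 2-fold higher and 6 at least 2-fold lower, with a median ratio of 1.003, against 3.04% higher and 7.54% lower of all measured genes. Besides Avp and Cartpt the higher ones were Gal, the galanin precursor, with 4 UMIs in the Pmch-rich spots and a ratio of 3.14 (0.843 to 8.26), and Trh, the thyrotropin-releasing hormone precursor, with 4 UMIs and a ratio of 2.10 (0.566 to 5.48). Both intervals include 1. Sst, the somatostatin precursor, stood at 0.865 and Penk, the enkephalin precursor, at 1.16. Tac2, the neurokinin B precursor, had 15 UMIs and a ratio of 1.62 (0.903 to 2.69). Among abundant peptide genes, Tac1 (substance P) stood at 1.02 and Pnoc (nociceptin) at 1.14, while Cck stood at 0.422 (0.358 to 0.494), Npy at 0.337 (0.196 to 0.54) and Vip at 0.309 (0.1 to 0.723). The arcuate and reproductive peptide genes Agrp, Ghrh, Kiss1 and Gnrh1 had 0 UMIs in the Pmch-rich spots, Pomc had 3, and 17 of the 45 listed genes had none.

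**Figure D4:**
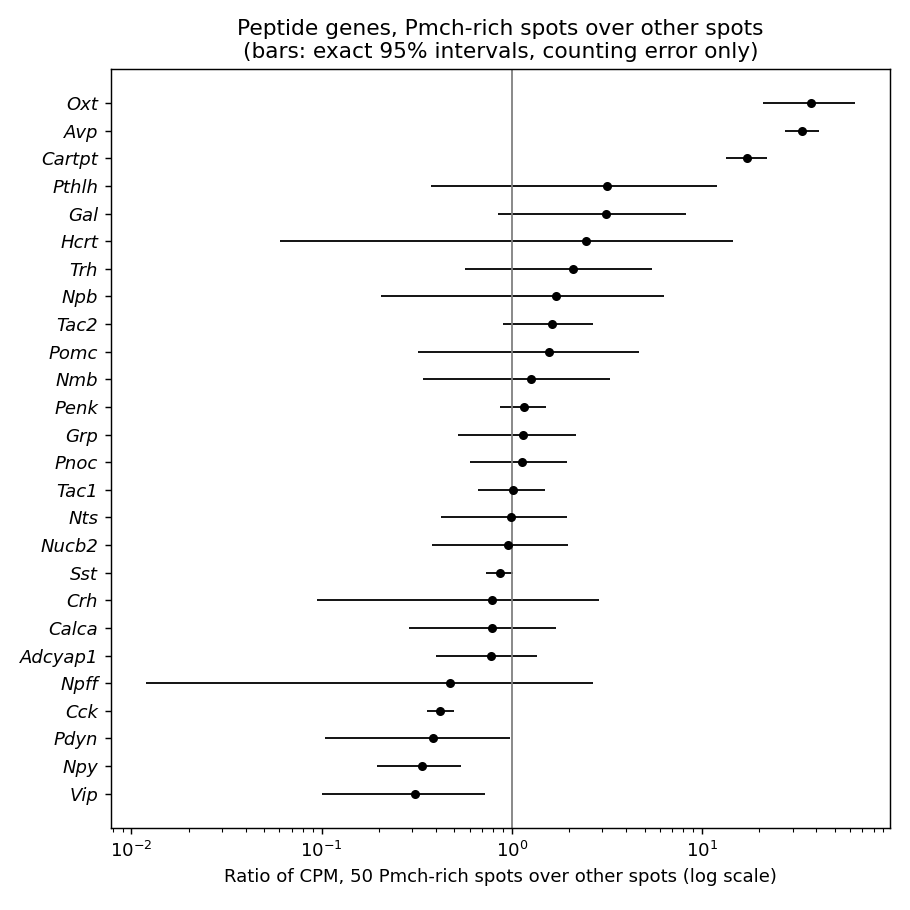
Ratio of CPM, Pmch-rich spots over other spots of section 1 (log axis), with exact 95% intervals for counting error, for the listed peptide genes with at least 1 UMI in the Pmch-rich spots and 30 in the section. Avp (33.7), Oxt (37.4) and Cartpt (17.2) stand apart to the right, and Hcrt (2.46) has an interval that includes 1.

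Receptors for feeding peptides and hormones lay on both sides of 1. Of 30 measured, 4 stood at least 2-fold higher and 6 at least 2-fold lower, with a median ratio of 1.02, against 3.04% higher and 7.54% lower of all measured genes. Mchr1, the MCH receptor, had 7 UMIs in the Pmch-rich spots and a ratio of 0.861 (0.345 to 1.78). Glp1r, the receptor of glucagon-like peptide 1, stood at 3.43, while Mc4r, the melanocortin receptor of appetite control, stood at 1.44. Both rested on few UMIs. Glp1r had 2 in the spots with at least 3 Pmch UMIs and 2 in those with fewer, and Mc4r had 2 and 0. Lepr, the leptin receptor, had 2 UMIs. The cholecystokinin receptor Cckbr and the neuropeptide Y receptor Npy1r, both abundant in forebrain, stood at 0.34 and 0.369.

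Granins and prohormone-processing genes stood close to the other spots as a list, with a median ratio of 0.940. Of 21 measured, 1 stood at least 2-fold higher and 1 lower, against 3.04% and 7.54% of all measured genes. The higher one was Baiap3, a regulator of dense-core vesicle release, at 3.21. Resp18 stood at 1.91 (1.70 to 2.14), Scg2 (secretogranin II) at 1.40 and Chga (chromogranin A) at 1.30. The convertases Pcsk1 and Pcsk2 stood at 0.902 and 0.729, and Chgb (chromogranin B) at 0.685. Members of the list thus lay on both sides of 1.

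Imprinted genes, many of which are known for high expression in the hypothalamus, mostly stood above the other spots and below the 50 spots highest in the 12 hypothalamus genes. Of 31 measured against the other spots, 27 stood above 1, 5 at least 2-fold higher and 0 at least 2-fold lower, with a median ratio of 1.31. Over all 13319 measured genes 6053 stood above 1, and 3.04% stood at least 2-fold higher. Against the 50 spots highest in the 12 genes, 1 of 25 measured stood at least 2-fold higher and the median ratio was 0.856. Over all genes measured in that comparison, 1.88% stood at least 2-fold higher. The summed level was 79.3 per 10000 in the Pmch-rich spots, against 93.3 in those 50 spots and 64.4 in all other spots. These sums include Nap1l5 and Peg10, both among the 12 genes that chose those 50 spots. The higher sum there is thus partly set by that choice, while the median ratio of 0.856 leaves both genes out. Magel2, a gene of the Prader-Willi region, stood at 3.92 (1.42 to 8.75) on 6 UMIs, Dlk1 at 2.47 (1.68 to 3.51) and Zdbf2 at 2.21 (1.44 to 3.26). Nnat, which encodes neuronatin, stood at 2.05 (1.85 to 2.27) and Igf2 at 2.24. The spot at rank 23 held 84 of the 382 Nnat UMIs and 69 of the 117 Igf2 UMIs of the Pmch-rich spots, and it was rich in meningeal genes. Without that spot Nnat stood at 1.67 and Igf2 at 0.963. Peg3 stood at 1.46 and Ndn at 1.38. For Ndn the ratio to the other spots was 1.61 in the spots with at least 3 Pmch UMIs and 0.809 in those with fewer.

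Other transcription factors that stood higher are known from GABA neurons of the ventral forebrain. Dlx2 had 8 UMIs and a ratio of 4.65 (1.97 to 9.38), and the related Dlx6 and Dlx5 stood at 2.63 and 2.43. Neurod6, a factor of cortical excitatory neurons, stood at 0.265. Tcf7l2, which marks thalamus, stood at 0.554.

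Genes of the dorsal forebrain and thalamus were lower in the Pmch-rich spots. All 12 measured cortex genes stood below 1, 4 of them at least 2-fold lower, against 7.54% of all measured genes, with a median ratio of 0.562. All 12 measured thalamus genes also stood below 1, with 3 at least 2-fold lower and a median of 0.595. For hippocampus genes the median of 10 was 0.649, and for striatum genes the median of 10 was 0.948. Immediate early genes, which are induced by neuronal activity, all stood below 1, with 7 of 15 at least 2-fold lower, against the same 7.54%, and a median of 0.505. Egr1 had 42 UMIs in the Pmch-rich spots and a ratio of 0.416 (0.300 to 0.563), and Btg2 had 2 UMIs and a ratio of 0.130. Immediate early genes and cortex genes were low in the same spots, and how far one list moves with the other was not tested.

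The 20 genes with the largest ratio, among those with at least 20 UMIs in the Pmch-rich spots, were led by Avp and Cartpt, followed by Ecel1, Fmod (3.53), Ogn (3.42), Baiap3, Cd74 (3.001), Slc22a6 (2.88), Rcn1 (2.80) and Ngb (2.79). Fmod and Ogn encode small proteoglycans of connective tissue, Slc22a6 an organic anion transporter and Ngb neuroglobin. The list went on with Aldh1a2 (2.76), Sult1a1 (2.73), Pcdh11x (2.69), Celf6 (2.60), Gpx3 (2.59), Thbd (2.48), Dlk1 (2.47), AW551984 (2.46), Ifitm1 (2.45) and Dmpk (2.44). Connective tissue genes thus stood among them beside neuronal genes.

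A single spot carried most UMIs of several connective tissue genes, and a few other spots were also rich in such markers. Summed markers of choroid plexus and meninges ran from 22.4 to 1232 per 10000 over the Pmch-rich spots and came to 110 per 10000 in their sum, against 70.1 in the other spots. The spot at Pmch rank 23, with 7 Pmch UMIs, was at 1232. The next highest spots, at ranks 30, 33 and 41, were at 246, 164 and 112. The spot at rank 23 held 3194 of the 5564 UMIs of Ptgds, the prostaglandin D synthase of meninges, in the Pmch-rich spots. Without this spot 7 of the 20 leading genes stood under 2-fold: Fmod (1.46), Ogn (1.01), Slc22a6 (0.716), Aldh1a2 (1.003), Sult1a1 (1.87), Thbd (1.02) and Ifitm1 (1.33).

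Among the genes with at least 500 UMIs in the section, the 10 with the smallest ratio rested on 0 to 2 UMIs in the Pmch-rich spots. Tmem132d and Sult2b1 had 0 UMIs there and 717 and 652 in the other spots, which is at least 2.56-fold and at least 2.32-fold lower when 0 is set to 3 counts, and their exact intervals reach up to ratios of 0.482 and 0.531. Alkbh4 had 0 and 502 UMIs, at least 1.79-fold lower by the same floor, with an interval up to 0.690. Kdm3a (0.121) and Lrrk2 (0.123) had 1 UMI each, as had Dck, Iqgap2 and Lamb1. Btg2 and Rasl10a had 2 UMIs each, with ratios of 0.130 (0.0157 to 0.470) and 0.138.

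No listed marker of oligodendrocytes, astrocytes, microglia or endothelium passed 2-fold in either direction. In contrast, 7 ependymal markers stood at least 2-fold lower and 1 red blood cell gene at least 2-fold higher. All 12 oligodendrocyte markers stood above 1, with 0 at least 2-fold higher and a median ratio of 1.21. Their summed level ran from 41.1 to 542 per 10000 over the Pmch-rich spots, with 137 in their sum and 116 in the other spots. Mbp, the main myelin protein gene, stood at 0.921 in spots with at least 3 Pmch UMIs and at 1.80 in those with fewer, relative to the other spots. The median ratio was 1.19 for 14 astrocyte markers, 1.29 for 11 microglia markers and 1.002 for 10 endothelial markers. Of 13 measured ependymal and tanycyte markers, 7 stood at least 2-fold lower, against 7.54% of all measured genes, with a median of 0.476. All 5 haemoglobin and red blood cell genes stood above 1, with a median of 1.91. Their median was 2.49 in the spots with at least 3 Pmch UMIs and 0.560 in those with fewer. The spot at rank 30 held 236 of the 1078 Hbb-bs UMIs of the Pmch-rich spots. The part of blood, myelin and depth in these ratios was not tested.

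The Pmch-rich spots were next set against the 50 other spots of section 1 that ranked highest by the 12 hypothalamus genes. These comparison spots held 806165 UMIs, at a median depth of 15029, and 8 Pmch UMIs in 6 spots (9.92 CPM), close to the 10.0 CPM of all other spots. Of 8601 genes with at least 20 UMIs over both sets, 162 (1.88%) stood at least 2-fold higher in the Pmch-rich spots and 165 (1.92%) at least 2-fold lower, with 1 UMI added to each sum. The median ratio was 0.975. The largest ratio was that of Avp (43.2), with 132 UMIs in the Pmch-rich spots and 3 in the comparison spots, a ratio of 57.2 (19.1 to 281) with no UMI added. Oxt had 20 UMIs in the Pmch-rich spots, 13 of them in 1 spot, and 0 in the comparison spots. It stood at least 8.66-fold higher when 0 is set to 3 counts, with an exact lower limit of 6.42, and entered the comparison only through the Pmch-rich spots. Then came Ogn (10.7), Slc22a6 (7.15), Myoc (6.50) and Slc13a4 (6.31), and Cd74, Igf2, Fmod and Sult1a1 at 4.76 to 5.34. Without the spot at rank 23, Ogn kept 9 UMIs and Slc22a6 5, against 3 each in the comparison spots. Of the 69 Myoc UMIs, 28 lay in the spot at rank 30. Without the meningeal spot at rank 23, 114 genes stood at least 2-fold higher in place of 162.

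The comparison spots carried other peptides. Nps, the neuropeptide S precursor, had 0 UMIs in the Pmch-rich spots and 132 in the comparison spots. This is at least 33.9-fold lower when 0 is set to 3 counts, with an exact interval up to a ratio of 0.0368. Calca, the precursor of calcitonin gene-related peptide, had 6 against 152. Over the section, 1 spot outside the Pmch-rich set held 82 of 248 Nps UMIs, and 1 held 83 of 720 Calca UMIs. Their spread over the comparison spots was not examined. Nts (neurotensin, 0.177), Adcyap1 (the peptide PACAP, 0.172), Cbln2 (0.144), Nr4a2 (0.208) and Bdnf (0.248) were also among the smallest ratios. Nps and Calca are both known from the parabrachial region of the brainstem. Of 16 peptide genes measured in this comparison, 3 stood at least 2-fold higher and 7 lower, against 1.88% and 1.92% of all genes. Their median ratio was 0.598. Cartpt was at 126 CPM in the Pmch-rich spots and 38.5 CPM in the comparison spots, a ratio of 3.27 (2.13 to 5.13). Without the top Pmch spot it was at 33.2 CPM, below the 38.5 CPM of the comparison spots. The immediate early genes, low against all other spots, had a median ratio of 1.09 over 10 measured genes here.

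Outside the Pmch-rich spots, Pmch was spread thinly over section 1. A Pmch UMI was found in 16.5% of the other spots (15.2 to 17.9), at a median depth of 18216 UMIs, and in 17.5% of the 200 Slc17a7-rich spots (12.5 to 23.5), at 26539. After thinning to 5000 UMIs these shares were 4.66% of the other spots and 4.47% of the Slc17a7-rich spots. When all kept spots were divided by hypothalamus rank into 10 groups of 303, the share of spots outside the 50 with a Pmch UMI was 17.4% in the highest group and 10.8% in the lowest. The lowest group was also the shallowest, at a median of 10319 UMIs. The Pmch-rich spots left out numbered 22 in the highest group and 0 to 7 in each other group. The profile over rank is thus partly set by that removal. After thinning, the 3 highest groups were at 6.19% to 6.92% and the other 7 at 2.72% to 4.95%, with overlapping intervals. The share over all other spots lay within the interval of the Slc17a7-rich spots at full depth and after thinning (1.95 to 8.62), so a single Pmch UMI there is not read as expression. The source of these UMIs was not tested.

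**Figure D5:**
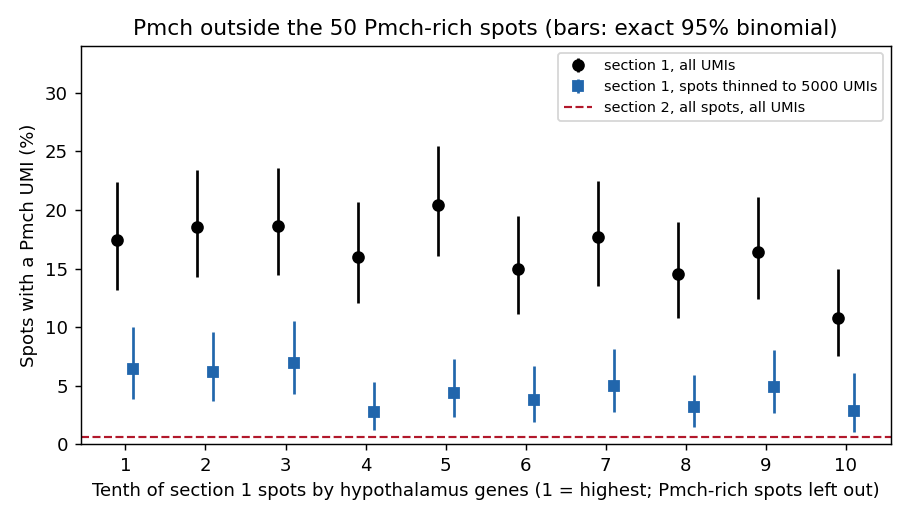
Share of section 1 spots outside the Pmch-rich set that had a Pmch UMI (per cent, with exact binomial intervals), in 10 equal groups by hypothalamus gene rank from highest (1) to lowest (10), at full depth in black and after thinning to 5000 UMIs in blue, with the share over section 2 as a dashed line. At full depth the share lies between 10.8% and 20.5% in every group, against 0.593% in section 2. The Pmch-rich spots left out numbered 22 in group 1 and 0 to 7 in each other group, which partly sets the profile.

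Section 2 held almost no Pmch. Its 2531 kept spots had 17 Pmch UMIs in 15 spots, or 0.304 CPM, and no spot had more than 2. The share of spots with a Pmch UMI was 0.593% (0.332 to 0.976) at a median depth of 21555 UMIs, and 0.12% after thinning. The 50 spots of section 2 that ranked highest by the 12 hypothalamus genes had 1 Pmch UMI (0.719 CPM), while Cartpt was at 504 CPM there. The 2 sections share 1965 barcodes, since a barcode is a position on the slide. The barcodes of 14 Pmch-rich spots also occur in section 2, with 0 Pmch UMIs there. Per the file headers the sections were processed with Space Ranger 1.2.2 (section 1) and 2.0.1 (section 2), so section, tissue level and software version cannot be told apart.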

How the data were processed

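The values used are the UMI counts of every gene in every tissue-covered spot, as deposited by the authors. They are whole and not normalized. Per the file headers, Space Ranger 1.2.2 made those of section 1 and 2.0.1 those of section 2. The submitters' processing notes name version 2.0.1 and the mm10 genome for both. Which gene annotation was used upstream is not given in the sources used. Spot positions were not used. Gene coordinates were taken from RefSeq (GRCm38.p6). 

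Both files list 32285 genes. The limit of 500 UMIs kept 3030 of the 3167 spots of section 1, and in section 2 it kept 2531 of 2533. The labels give 1 section per replicate and do not say whether the sections come from separate animals. Counts were summed over spots and expressed as CPM. Genes with at least 100 UMIs over section 1 entered counts of genes at least 2-fold higher or lower, and Pmch was left out of them. Against the spots highest in the hypothalamus genes, the minimum was 20 UMIs over both sets, and the 12 ranking genes were left out as well. Spots were ranked by the mean z-score of log(1 + UMIs per 10000) over those 12 genes. The 200 Slc17a7-rich spots were those with the highest Slc17a7 UMIs per 10000. For thinning, 5000 UMIs were drawn per spot and shallower spots were left out (8 Pmch-rich spots and 171 other spots). A fold against 0 used a floor of 3 counts over the set. Doublets were not called, as spots are not single cells.

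The 29 gene lists (434 genes) and the members were chosen with earlier results of these data known, and the lists share genes. The text names list members, the 20 largest ratios (at least 20 UMIs in the Pmch-rich spots), the 10 smallest (at least 500 UMIs in the section), and the 10 largest and smallest against the spots highest in the hypothalamus genes. A planned ranking of genes by Spearman's rho with Pmch over the 50 spots is left out, since the Pmch values chose those spots. The leading genes of the top spot were added after the values were seen. Predicted genes were not named, and 1 listed gene is not reported here. Ratios and intervals were tested on simulated data. Tools were Python 3.11.15, numpy 2.4.6, scipy 1.17.1, pandas 2.3.3 and matplotlib 3.10.9. As an alternative, a TMM factor was computed with edgeR 4.0.16 in R 4.3.3.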

Additional observations from a re-analysis of the deposited data

Results flagged for a closer look

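The 17 Pmch UMIs of section 2 lie in data that hold none of the Pmch-rich spots. They were spread over 15 spots, with at most 2 in a spot, and none lay at the barcode of a Pmch-rich spot. Of these spots, 13 have a barcode that also occurs in section 1, and 1 of the 13 had Pmch at that barcode in section 1. The level of 0.304 CPM in section 2 compares with 10.0 CPM in the section 1 spots outside the Pmch-rich set.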

How the results depend on the processing

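No paired analysis was possible because the Pmch-rich spots lie in 1 section and no result comes from a test. The 405 genes at least 2-fold higher in the Pmch-rich spots became 746 with 25 spots, 905 with a minimum of 30 UMIs per gene, 73 with 500 and 8113 with no minimum, where 1 UMI was added to each sum. The 1004 lower genes became 1922 with 25 spots, 443 with 100, 2058 and 350 with minima of 30 and 500, and 297 with no minimum. With the Pmch-rich spots of at least 3 Pmch UMIs alone, 613 genes stood higher. The Hcrt ratio of 2.46 became 0 with 25 spots and 0 after thinning, both on 0 UMIs, and lay between 1.12 and 3.48 under the 9 other alternatives. Against the spots highest in the hypothalamus genes, the 162 higher genes became 85 after thinning, 36 with a minimum of 50 UMIs and 1763 with no minimum. The remaining alternatives moved no count by over 1.5 times: 8 for the higher genes, 8 for the lower genes and 9 for that comparison. The causes were not tested. Leaving out the top spot, leaving out the meningeal spot and keeping spots with at least 3 Pmch UMIs were added after the data were seen. At 620407 UMIs over the Pmch-rich spots, a gene with 100 UMIs in the section corresponds to about 1.06 UMIs there, so a ratio past 2-fold in either direction can rest on 0 to 3 UMIs.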

Other observations

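Among the listed peptide genes and Pmch, taking those with at least 50 UMIs in section 1 (a minimum set after the values were seen), Pmch was the one most concentrated in a single spot, with 38.6% of its UMIs in the top spot, and Nps came next, with 82 of its 248 UMIs (33.1%) in a spot outside the Pmch-rich set. Oxt had 18.6%, Cartpt 11.6%, Calca 11.5% and Avp 10.2% of their UMIs in their own highest spot. Those of Oxt, Cartpt and Avp are Pmch-rich spots.

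Of the GABA-A receptor subunits, 12 were measured, with 2 at least 2-fold higher in the Pmch-rich spots than in the other spots and 1 at least 2-fold lower, against 3.04% and 7.54% of all measured genes, and a median ratio of 0.804. The higher ones were Gabrq (3.26) and Gabrg3 (2.06), and the lower one was Gabra4 (0.36), a subunit of forebrain and thalamus. Of the 8 measured monoamine and histamine genes, 0 passed 2-fold in either direction, with a median ratio of 0.906. In the same comparison, Nr2f2, a transcription factor of caudal and ventral forebrain, stood at 1.96 and Lhx8, a factor of ventral forebrain cholinergic neurons, at 6.41 on 5 UMIs.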
